A study of Homo sapiens with 12 samples.

Results

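The mRNAs of 32 translation initiation factors were followed across 12 RNA-seq libraries from human HEK293 cells, an established embryonic kidney line. The members are the genes of a fixed list that are named as eukaryotic initiation factors, 32 of the 57820 gene identifiers counted, and all 32 were abundant enough to be tested. The cells were HEK293 Flp-In T-Rex lines that overexpressed FLAG/HA-tagged RPL12, a protein of the large ribosomal subunit also called uL11. The tagged protein was wild type (WT), S38A (serine 38 changed to alanine, which cannot be phosphorylated) or S38D (the same serine changed to aspartate, often used to imitate a phosphate). The lines were expanded from hygromycin-resistant colonies described as monoclonal, so a difference between lines may also be a difference between clones, and the sources used here describe no removal of the cells' own RPL12.

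For each form, 2 pooled 80S fractions of sucrose gradients, the fractions that hold single assembled ribosomes, were each divided into an aliquot for total RNA (the input) and a remainder for anti-FLAG immunoprecipitation (the IP) in the presence of cycloheximide. This gave 6 groups of 2 libraries. The IP therefore holds RNA bound to ribosomes with tagged RPL12, beside any RNA that the beads retained for other reasons, and no IP from cells without the tag was analysed here. Whether replicate fractions were drawn from separate cultures is not stated, and p-values here reflect only how these libraries vary, variation that may be technical. Gene counts per library ranged from 7434431 to 8723130 in input and from 3186164 to 7430881 in IP. Spike-in RNA took 0.116% to 0.484% of counts in input and 1.44% to 5.43% in IP.

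Initiation factors bring the initiator tRNA, the small ribosomal subunit, the capped end of an mRNA and finally the large subunit together at a start codon. eIF2 delivers the initiator tRNA, eIF3 is the large scaffold on the small subunit, the eIF4 proteins bind the cap and unwind the leader, eIF1, eIF1A and eIF5 guide scanning and start codon choice, and eIF5B joins the subunits. mRNAs of several of these factors, like those of ribosomal proteins, are known to begin with a C followed by an unbroken run of pyrimidines, a 5′ terminal oligopyrimidine (TOP) motif through which mTOR signalling controls their translation.

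Transcript starts were read from RefSeq (GRCh38.p14) for the 26 members listed there. The other 6 (EIF2S2, EIF3A, EIF3E, EIF3G, EIF3H and EIF3L) had no entry. The motif searched was a C at an annotated first base followed by at least 4 bases that are each C or T, on the gene's own strand. It was present in 8 of the 26 (30.8%), against 5.14% of the 27305 genes in the table and 6.24% of its 15843 protein-coding genes. The 8 are shown because they recur in the comparisons, and EIF5B, EIF4E and EIF4A1 because they were the members with the highest change, a lower level and no call. Each line holds 10 bases before and 20 bases from the annotated start, 5′ to 3′, and capitals mark the run of C and T that includes the first transcribed base.
EIF2A (chr3:150546777-150546806, plus strand): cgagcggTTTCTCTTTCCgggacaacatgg
EIF2S3 (chrX:24054946-24054975, plus strand): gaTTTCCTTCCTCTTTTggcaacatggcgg
EIF3D (chr22:36529147-36529176, minus strand): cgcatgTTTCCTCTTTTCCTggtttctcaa
EIF3F (chr11:7987327-7987356, plus strand): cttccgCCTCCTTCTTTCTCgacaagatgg
EIF3K (chr19:38619178-38619207, plus strand): tttccaccaCCTCTTCCTgttcccgtcctt
EIF3M (chr11:32583821-32583850, plus strand): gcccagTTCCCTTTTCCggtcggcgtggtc
EIF4A2 (chr3:186783567-186783596, plus strand): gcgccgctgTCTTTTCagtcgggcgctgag
EIF4B (chr12:53006446-53006475, plus strand): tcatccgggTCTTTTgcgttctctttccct
EIF5B (chr2:99337379-99337408, plus strand): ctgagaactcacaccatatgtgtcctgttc
EIF4E (chr4:98929114-98929143, minus strand): tggagcggttgtgcgatcagatcgatctaa
EIF4A1 (chr17:7572815-7572844, plus strand): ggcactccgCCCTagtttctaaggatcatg

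Most initiation factor mRNAs were higher in the IP than in the input of the same fractions. Of the 32 members, 24 were higher and 1, EIF4E, was lower, over the lines together (edgeR quasi-likelihood test, adjusted p under 0.05, with Benjamini-Hochberg adjustment over 16920 genes). This fit has a term for each group and does not pair an IP with the input of its own fraction. SEs and p-values below are from that unpaired fit unless another is named, and the replicate block is the paired alternative. Of all genes tested, 15.9% were called higher and 15.9% lower. The median log2 change of the members was 0.46, beside -0.04 over all genes. The members' joint share of gene counts was 0.704%, 0.786% and 0.855% (lowest, median and highest library) in input and 0.840%, 1.03% and 1.10% in IP. These levels are shares of a library. An IP and its input were divided from the same pooled fraction, so their comparison is not one between cells. Between lines, fewer cells with an mRNA and less of it per cell cannot be told apart.

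The direction was shared by the fractions. When each IP was set against its own input, 25 members (78.1%) were higher in 6 of 6 fractions, as were 20.3% of all genes. EIF4E and EIF2S1 were lower in 6 of 6, as were 23.3% of all genes, and the other 5 members were mixed. In 8 members every IP library lay above every input library (EIF2S2, EIF3A, EIF3B, EIF3F, EIF3G, EIF3K, EIF5A and EIF5B), against 6.15% of all genes. EIF4E was the member in which every IP library lay below every input library, against 6.86% of all genes.

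**Figure D1:**
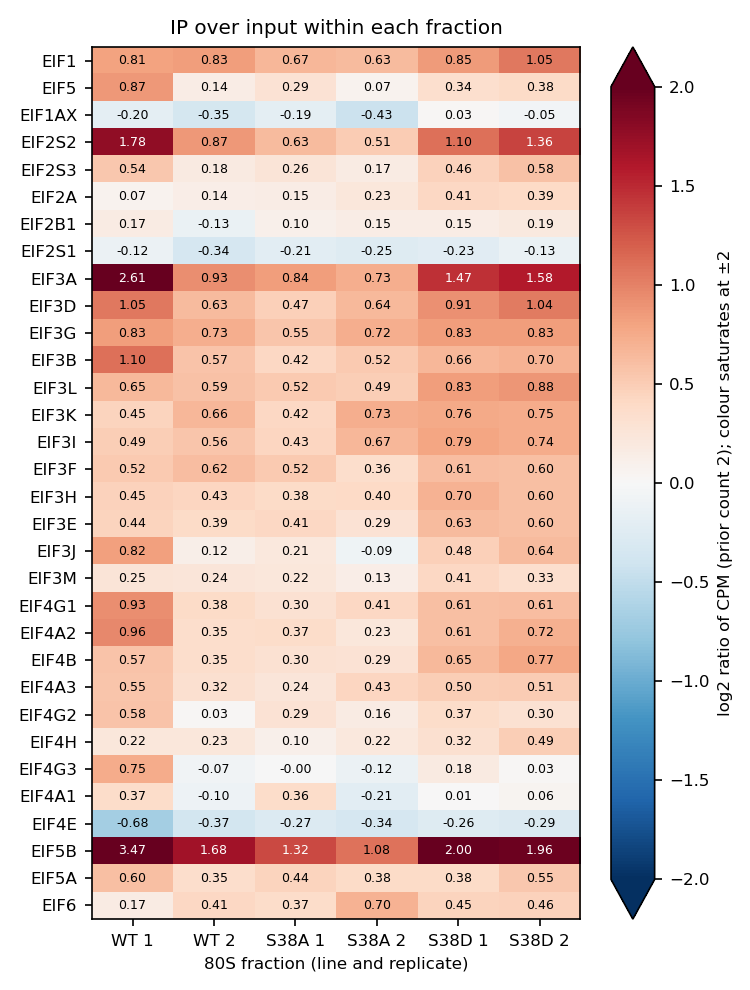
log2 of IP over input CPM for each of the 32 initiation factor mRNAs (rows, grouped by role) in each of the 6 fractions (columns, by RPL12 form and replicate), with colours saturating at 2 in either direction. EIF5B, EIF3A and EIF2S2 were highest in the first WT fraction, and EIF4E and EIF2S1 were below 0 in 6 of 6 fractions.

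Most members are abundant mRNAs. By mean CPM over the libraries, 28 of the 32 lay in the top quartile of genes tested, and 22 of those 28 (78.6%) were called higher, beside 37.4% of all genes in that quartile. An increase of at least 2-fold was found for 3 members (EIF5B, EIF3A and EIF2S2), as for 1.92% of all genes. The part of abundance in the members' IP levels was not tested.

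**Figure D2:**
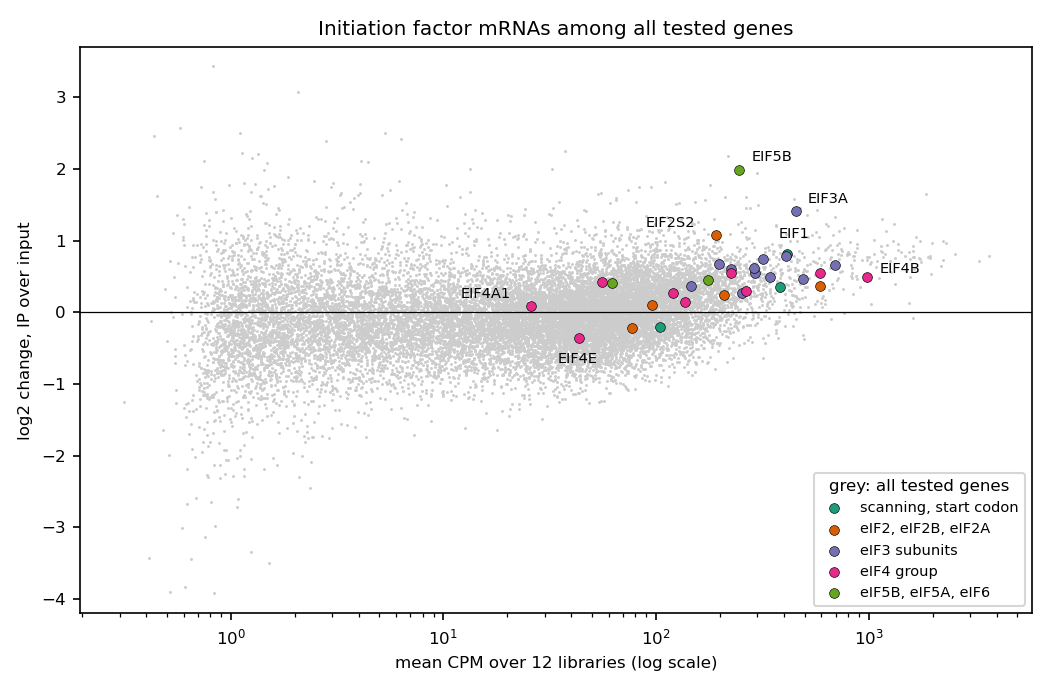
log2 change in IP over input (y axis) against mean CPM (x axis, log scale) for the genes tested (grey) and the initiation factor mRNAs (coloured by role). The initiation factor mRNAs sit at the right, and 28 of 32 are in the top quartile by mean CPM.

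The scaling between libraries shifts all changes of a comparison together. The values above use TMM factors, which set the bulk of genes near 0. With library totals in their place the median of all genes was -0.25, the members' median was 0.24, and 15 members were called higher and 3 lower (EIF1AX, EIF2S1 and EIF4E). With the fraction as a replicate block, 26 were higher and 3 lower, with EIF2A (0.23, adjusted p 0.0075) and EIF3M (0.26, adjusted p 0.0038) added to those higher, and EIF1AX (-0.20, adjusted p 0.030) and EIF2S1 (-0.22, adjusted p 0.021) to those lower. The shares of all genes called with library totals or with the block are not given here. The member counts of those fits are therefore not set against all genes.

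**Figure D3:**
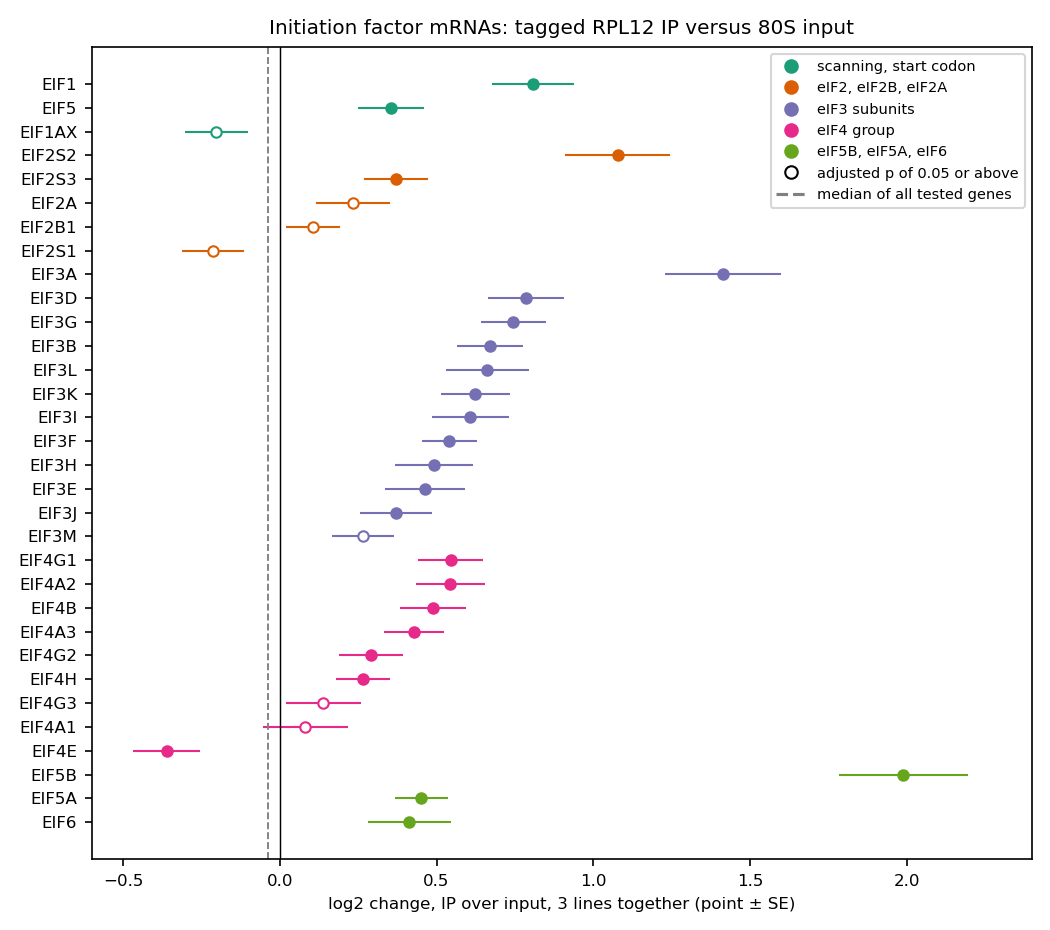
log2 change in IP over input over the lines together for each initiation factor mRNA (point, with 1 SE either way), by role, with filled points for edgeR adjusted p under 0.05 and a dashed line at the median of all genes. EIF5B (1.99) lies farthest to the right and EIF4E (-0.36) is the filled point left of 0.

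Of the factors that act at or after subunit joining, EIF5B had the highest change of all members. EIF5B (ENSG00000158417) encodes the GTPase that joins the large subunit to the small one at the start codon. In input it stood at 81.0 and 92.8 CPM (counts scaled to library size, here with TMM factors) in WT, 88.0 and 97.2 for S38A and 93.7 and 98.9 for S38D. In IP it stood at 901 and 298 CPM in WT, 221 and 206 for S38A and 376 and 385 for S38D. Every IP library was above every input library, and the first WT fraction was far above the others. The IP level was 3.97-fold the input level over the lines together (log2 1.99, SE 0.21, edgeR adjusted p 0.00013). When both libraries of the first WT fraction were left out, it was at log2 1.62 (edgeR adjusted p 8.9e-05).

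EIF5A, the hypusine-containing factor that helps peptide bond formation, was 1.37-fold higher (log2 0.45, SE 0.085, edgeR adjusted p 0.0018). EIF6 (ENSG00000242372), which keeps the large subunit from joining before it is mature, stood at 61.6 and 51.9 CPM in WT input, 60.3 and 35.2 for S38A and 56.0 and 53.6 for S38D. In IP, EIF6 stood at 69.2 and 69.1 CPM in WT, 78.3 and 57.2 for S38A and 76.4 and 74.0 for S38D. The sides overlapped through the second S38A fraction, the lowest on each side, and each IP was above its own input. The log2 change of EIF6 was 0.41 (SE 0.13, edgeR adjusted p 0.032), and it remained called in 3 of the 12 fits that each left out 1 library.

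Among the eIF3 subunits, all 12 measured had a positive change, 11 of them passed the test (EIF3M did not), and the changes ran from 0.26 to 1.41 on the log2 scale with a median of 0.62. The sign was positive for all 12 also with library totals, with RLE size factors, without the filter on low counts, in DESeq2 and with the replicate block. No other role group is compared with eIF3 by a test here.

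EIF3A (ENSG00000107581), the largest scaffold subunit, stood at 221 and 268 CPM in WT input, 229.5 and 236 for S38A and 233 and 235 for S38D. In IP it stood at 1348 and 512 CPM in WT, 412 and 392 for S38A and 644 and 706 for S38D. As for EIF5B, the sides did not overlap and the first WT IP was the highest library. The change of EIF3A was 2.66-fold (log2 1.41, SE 0.18, edgeR adjusted p 0.00030), and without the first WT fraction it was at log2 1.08 (edgeR adjusted p 0.00037).

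EIF3B (ENSG00000106263), the other scaffold subunit of the core, stood at 147 and 149.9 CPM in WT input, 137 and 158 for S38A and 154 and 162 for S38D. In IP, EIF3B stood at 317 and 223 CPM in WT, 184 and 226 for S38A and 243 and 263 for S38D. Its sides did not overlap, and its change was 1.59-fold (log2 0.67, SE 0.11, edgeR adjusted p 0.00074).

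EIF3D (ENSG00000100353), a subunit that can itself bind the cap of some mRNAs, stood at 308 and 369 CPM in WT input, 299 and 211 for S38A and 276 and 315 for S38D. In IP, EIF3D stood at 637 and 571 CPM in WT, 414 and 329 for S38A and 518 and 645 for S38D. The second S38A fraction was the lowest on each side, and its IP level was the only one below an input level. The change of EIF3D was 1.72-fold (log2 0.79, SE 0.12, edgeR adjusted p 0.00063).

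EIF3G (ENSG00000130811), a subunit with an RNA recognition motif that takes part in scanning, stood at 260.4 and 266 CPM in WT input, 241 and 175 for S38A and 239 and 243 for S38D. In IP, EIF3G stood at 463 and 441 CPM in WT, 352 and 289 for S38A and 425 and 432 for S38D. The sides did not overlap, and the change was 1.68-fold (log2 0.75, SE 0.10, edgeR adjusted p 0.00036). Its log2 change by fraction was between 0.55 and 0.83, a narrower span than the 0.73 to 2.61 of EIF3A.

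EIF3L (ENSG00000100129) stood at 583 and 677 CPM in WT input, 526 and 357 for S38A and 510.4 and 550.0 for S38D. In IP, EIF3L stood at 912 and 1019 CPM in WT, 752 and 503 for S38A and 910.5 and 1014 for S38D. The second S38A fraction was the lowest on each side, and the sides overlapped through its IP. The log2 change of EIF3L was 0.66 (SE 0.13, edgeR adjusted p 0.0027).

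The other called subunits had smaller changes, from 0.37 for EIF3J to 0.62 for EIF3K on the log2 scale, with EIF3E, EIF3F, EIF3H and EIF3I between them. EIF3J (ENSG00000104131), which binds the complex loosely and is involved in its attachment to the small subunit, stood at 120.0 and 149 CPM in WT input, 132 and 116 for S38A and 119 and 126 for S38D. In IP, EIF3J stood at 212 and 162 CPM in WT, 152 and 109 for S38A and 166 and 197 for S38D. It was the one subunit whose IP lay below its own input in a fraction (S38A replicate 2, log2 -0.09). EIF3J remained called in 5 of the 12 fits that each left out 1 library. EIF3M had a log2 change of 0.26 (SE 0.099, edgeR adjusted p 0.058).

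The subunits of eIF2 differed from each other. EIF2S2 (ENSG00000125977), the beta subunit, stood at 123 and 111 CPM in WT input, 131 and 101 for S38A and 122 and 133 for S38D. In IP, EIF2S2 stood at 423 and 203 CPM in WT, 202 and 144 for S38A and 263 and 341 for S38D. Its sides did not overlap, and its change was 2.11-fold (log2 1.08, SE 0.17, edgeR adjusted p 0.00065).

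EIF2S1 (ENSG00000134001) encodes the alpha subunit, whose phosphorylation slows initiation under stress. EIF2S1 stood at 75.5 and 92.8 CPM in WT input, 79.9 and 74.96 for S38A and 79.9 and 94.2 for S38D. In IP, EIF2S1 stood at 69.2 and 73.5 CPM in WT, 69.0 and 62.9 for S38A and 68.2 and 86.2 for S38D. Each IP was below its own input while the sides overlapped, and the log2 change was -0.21 (SE 0.099, edgeR adjusted p 0.12). EIF2S3, the gamma subunit that binds the initiator tRNA and GTP, was 1.29-fold higher (log2 0.37, SE 0.10, edgeR adjusted p 0.015). EIF2A, a separate factor with a similar name, and EIF2B1, a regulatory subunit of the exchange factor of eIF2, had log2 changes of 0.23 (edgeR adjusted p 0.15) and 0.11 (edgeR adjusted p 0.37).

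Among the scanning factors, EIF1 (ENSG00000173812), which keeps scanning stringent, stood at 312 and 394 CPM in WT input, 308 and 219 for S38A and 298 and 266 for S38D. In IP, EIF1 stood at 547 and 700.3 CPM in WT, 489.7 and 339 for S38A and 536 and 550.0 for S38D. The second S38A library was the lowest on each side, and its IP level lay within the input range. The change was 1.75-fold (log2 0.81, SE 0.13, edgeR adjusted p 0.00085). EIF5, the activator of GTP hydrolysis on eIF2, was 1.28-fold higher (log2 0.35, SE 0.11, edgeR adjusted p 0.023) and remained called in 6 of the 12 fits that each left out 1 library. EIF1AX, the X-linked gene of eIF1A, had a log2 change of -0.20 (SE 0.10, edgeR adjusted p 0.15).

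The eIF4 group held the one member that was lower in IP. EIF4E (ENSG00000151247), the cap-binding protein, stood at 46.5 and 50.8 CPM in WT input, 52.6 and 45.9 for S38A and 46.2 and 50.1 for S38D. In IP, EIF4E stood at 28.9 and 39.2 CPM in WT, 43.6 and 36.3 for S38A and 38.5 and 41.0 for S38D. The sides did not overlap. The log2 change was -0.36 (SE 0.11, edgeR adjusted p 0.022), and EIF4E remained called in 7 of the 12 fits that each left out 1 library. Of the other 8 members of the group, 6 were higher (EIF4A2, EIF4A3, EIF4B, EIF4G1, EIF4G2 and EIF4H). EIF4B and EIF4H, which stimulate the helicase, had log2 changes of 0.49 (edgeR adjusted p 0.0039) and 0.27 (edgeR adjusted p 0.032), and EIF4H remained called in 3 of the 12 fits that each left out 1 library.

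The EIF4A genes encode RNA helicases of the same family. EIF4A1 (ENSG00000161960), the main helicase of cap-dependent initiation, stood at 25.5 and 22.5 CPM in WT input, 23.0 and 30.6 for S38A and 23.9 and 25.2 for S38D. In IP, EIF4A1 stood at 33.1 and 21.0 CPM in WT, 29.6 and 26.3 for S38A and 24.1 and 26.3 for S38D. The sides overlapped throughout, and the log2 change was 0.08 (SE 0.14, edgeR adjusted p 0.69). RefSeq names 13 pseudogenes after EIF4A1, the most of any member, and the treatment of reads shared between copies is not given by the sources at hand, which leaves its level uncertain.

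EIF4A2 (ENSG00000156976) stood at 480.0 and 564 CPM in WT input, 465 and 422 for S38A and 449 and 484 for S38D. In IP, EIF4A2 stood at 933 and 722 CPM in WT, 600.3 and 496 for S38A and 684 and 794 for S38D. The second S38A IP lay among the inputs, and the log2 change of EIF4A2 was 0.54 (SE 0.11, edgeR adjusted p 0.0026). EIF4A3 (ENSG00000141543), a helicase of the exon junction complex, stood at 43.4 and 53.8 CPM in WT input, 45.2 and 44.1 for S38A and 46.2 and 52.5 for S38D. In IP, EIF4A3 stood at 63.9 and 67.2 CPM in WT, 53.5 and 59.5 for S38A and 65.2 and 74.9 for S38D. The lowest IP of EIF4A3, from S38A, lay just below the highest input, and its log2 change was 0.43 (SE 0.096, edgeR adjusted p 0.0050).

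The EIF4G genes encode scaffolds that connect mRNA to eIF3, and EIF4G1 and EIF4G3 also bind eIF4E. EIF4G1 (ENSG00000114867) stood at 147 and 162 CPM in WT input, 198 and 232 for S38A and 185 and 178 for S38D. In IP, EIF4G1 stood at 280.5 and 211 CPM in WT, 245 and 308 for S38A and 281 and 271 for S38D. Each IP was above its own input although the lowest IP was below the highest input. The log2 change of EIF4G1 was 0.55 (SE 0.10, edgeR adjusted p 0.0020).

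EIF4G2 (ENSG00000110321), a relative that lacks the eIF4E site, stood at 231 and 244 CPM in WT input, 235 and 265 for S38A and 213 and 247 for S38D. In IP, EIF4G2 stood at 344 and 249 CPM in WT, 287 and 297 for S38A and 275 and 304 for S38D. Its log2 change was 0.29 (SE 0.10, edgeR adjusted p 0.046), and it remained called in 1 of the 12 fits that each left out 1 library. EIF4G3 (ENSG00000075151) stood at 105 and 112 CPM in WT input, 141 and 174 for S38A and 129 and 127 for S38D. In IP, EIF4G3 stood at 177 and 107 CPM in WT, 141 and 159.5 for S38A and 146 and 129.6 for S38D, and the sides overlapped. Its log2 change was 0.14 (SE 0.12, edgeR adjusted p 0.41).

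**Figure D4:**
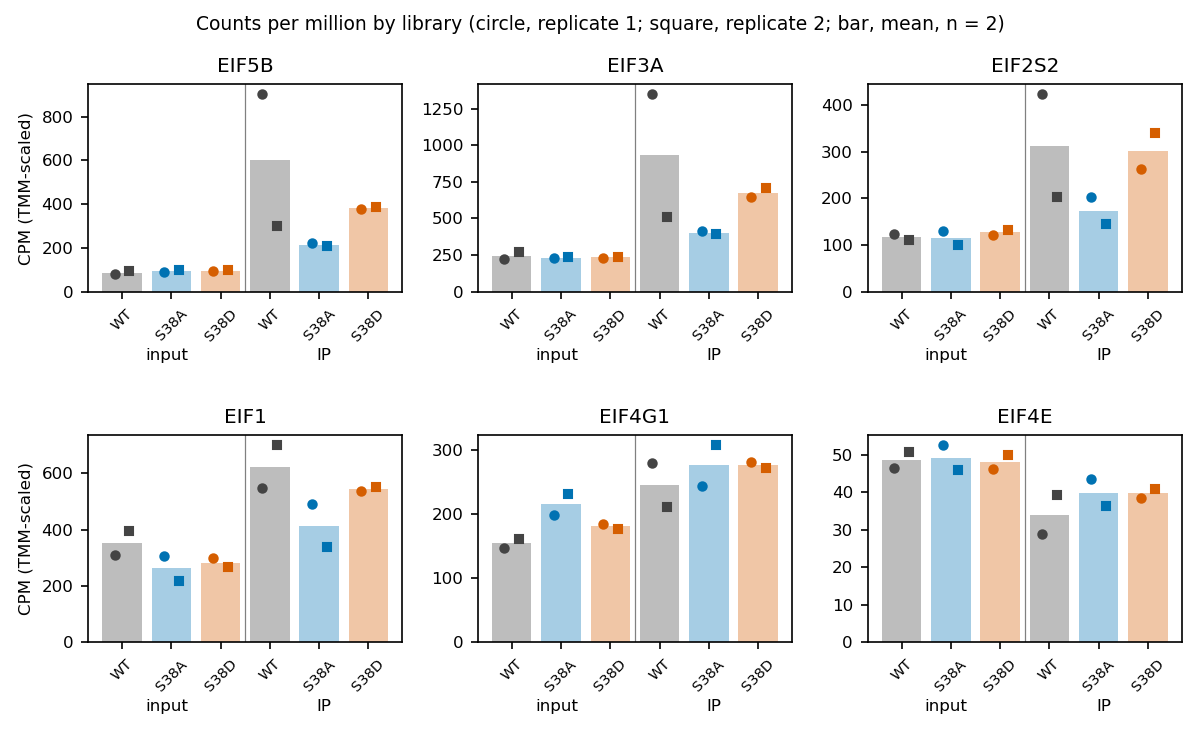
CPM of selected initiation factor mRNAs in each of the 12 libraries, by RPL12 form, with input and IP side by side and 1 point per library. The 2 WT IP libraries lie far apart for EIF5B (901 and 298) and EIF3A (1348 and 512), and EIF4E is lower in each IP.

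Calls for 17 members were present in each of the 12 fits that left out 1 library. The same count over all genes was not made, so whether it is particular to these mRNAs was not tested. Pseudogenes named after the gene exist in RefSeq for 20 of the 32 members, among them EIF4B (9), EIF1 (7) and EIF2S2 (7). EIF5B, EIF3A, EIF3B, EIF3D, EIF3G and EIF4G1 have none. What shared reads contribute to the changes was not tested.

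Single lines were compared with 2 libraries a side. In WT, 10 members were higher and none lower, against 5.77% and 5.48% of all genes. They were EIF5B (log2 2.78, SE 0.37, edgeR adjusted p 0.0054), EIF3A (1.92, SE 0.32), EIF2S2 (1.41, SE 0.29), EIF3B (0.86, SE 0.19), EIF3D, EIF1, EIF3G, EIF4G1, EIF4A2 and EIF3F. The count of calls moved with the libraries used, for members and all genes alike. Leaving out the first WT IP left 2 members higher (EIF5B and EIF3A; 1.32% of all genes higher), and leaving out the first WT input left 1 (EIF5B; 0.348%). Leaving out the second WT input, or both libraries of the first WT fraction, left 0 members and 0% of all genes, so those fits say nothing about the members. Without the first WT fraction the log2 change was 1.68 for EIF5B and 0.93 for EIF3A, and the median of the eIF3 subunits was 0.58, beside 0.57 with it. Without the second WT IP, 28 members had a positive change and 4 a negative one, and the median of the eIF3 subunits was 0.56. Calls of that fit are not set against all genes here. Leaving out any 1 S38D library, which keeps 2 libraries a side in WT, gave 6 members (4.24% to 4.46% of all genes higher). With the fraction as a replicate block, 21 members were higher and 1 was lower, against 14.0% and 14.5% of all genes. With that block and without the first WT fraction, 18 were higher and 2 lower, against 14.3% and 14.9%.

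In S38A, none of the 32 members passed in the edgeR fit, and neither did any other gene (0%). At an unadjusted p under 0.05 there were 12 members, all higher (37.5%, beside 15.2% of all genes), and 28 of the 32 changes were positive. The member of lowest p was EIF3G, at log2 0.62 (SE 0.18, edgeR adjusted p 0.16). EIF5B had a log2 change of 1.20 (SE 0.35, edgeR adjusted p 0.16). DESeq2 called 3 members (EIF5B, EIF3G and EIF3F; 1.39% of all genes higher), and edgeR without the filter on low counts called EIF5B and EIF3A, as it did when either WT IP was left out. For the fit without the filter, the share of all genes called is not given here. With the replicate block 13 members were higher, 9 eIF3 subunits and EIF1, EIF5A, EIF5B and EIF6, but not EIF3A, against 5.92% of all genes higher and 6.37% lower.

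In S38D, 9 members were higher and none lower, against 3.13% and 1.74% of all genes (4.87% either way). They were EIF5B (log2 1.98, SE 0.36, edgeR adjusted p 0.022), EIF3A (1.53, SE 0.32), EIF2S2 (1.24, SE 0.29), EIF3D (0.98, SE 0.21), EIF1, EIF3G, EIF3K, EIF4B and EIF3F. The median absolute log2 difference between the members' levels in replicate IPs was 0.13 for S38D, 0.29 for WT and 0.27 for S38A, and over all genes it was 0.27, 0.38 and 0.26. Leaving out any 1 S38D library left 0 members and at most 0.0228% of all genes. Leaving out a WT input left 4 members (1.46% to 1.5% of all genes higher), and leaving out either WT IP gave 15 (6.18% to 6.58%). With the replicate block 24 members were higher (10.7% of all genes higher, 9.28% lower), and DESeq2 called 19 (7.03% of all genes higher).

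The next question is whether the form of RPL12 changed the recovery of these mRNAs, tested as a difference between lines in IP over input. No member and no other gene (0%) passed in any of the 3 pairs of lines in the edgeR fit, and DESeq2 called none either. The pairs share lines, so their values are given side by side and not compared.

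For S38A against WT, 26 of the 32 differences were negative, with a member median of -0.10 beside 0.05 over all genes. With library totals 13 of 32 were negative, so this balance turned with the scaling. The lowest p belonged to EIF5B, with a log2 difference of -1.58 (SE 0.49, unadjusted p 0.0068, edgeR adjusted p 1.00). EIF3A was at -1.13 (unadjusted p 0.025), the only other member with an unadjusted p under 0.05, a share of 6.25% beside 2.32% of all genes. Both values follow the first WT IP. Without it EIF5B was at -0.63 and EIF3A at -0.33, and without the second WT IP they were at -2.17 (edgeR adjusted p 0.0044) and -1.67 (edgeR adjusted p 0.0047) and passed. Both also passed without the filter on low counts (edgeR adjusted p 0.00026 and 0.040). Adjusted p-values of that fit are on another footing. In IP against input, EIF5B had an edgeR adjusted p of 3.3e-61 there (log2 1.95), beside 0.00013 in the main fit, and EIF4G3 had 0.80 beside 0.41. The share of all genes called in that fit is not given here, so its calls are not set against all genes.

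For S38D against WT the member median was 0.10 beside 0.02 over all genes, and no member had an unadjusted p under 0.05 (0.79% of all genes did). EIF5B had the lowest p again, at -0.80 (SE 0.49, edgeR adjusted p 1.00), and turned to 0.16 without the first WT IP.

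For S38D against S38A, 30 of the 32 differences were positive, with a member median of 0.22 beside -0.02 over all genes. With library totals 25 were positive, including all 12 eIF3 subunits. The eIF3 median was 0.24 in the main fit and moved with single S38A libraries. It was 0.043, with 4 of the 12 negative, without the first S38A input, and 0.078 without the second S38A IP. It was 0.47 without the second S38A input and 0.50 without the first S38A IP. No member had an unadjusted p under 0.05 (0.64% of all genes did), and the lowest was that of EIF3J, at a log2 difference of 0.49 (SE 0.28, unadjusted p 0.11, edgeR adjusted p 1.00). EIF5B stood at 0.78 (SE 0.49), EIF3A at 0.74 (SE 0.45) and EIF2S2 at 0.66 (SE 0.41). With the replicate block and both libraries of the first WT fraction left out, an alternative chosen after seeing the data, 8 members passed, all higher in S38D. They were EIF3A (0.74, SE 0.10, edgeR adjusted p 5.3e-07), EIF5B (0.78, SE 0.11, edgeR adjusted p 5.8e-07), EIF2S2 (0.66, SE 0.11), EIF3J, EIF4B, EIF3D, EIF4A2 and EIF3L. In that fit 2.1% of all genes were called higher and 0.224% lower. It had 2 residual degrees of freedom, to which edgeR added a prior of 89.3 from genes in general, beside 6 and 6.76 in the fit of all libraries without the block. With the replicate block over all libraries none passed, and 5 had an unadjusted p under 0.05 (EIF2S2, EIF3D, EIF3J, EIF3L and EIF4B; 3.42% of all genes did).

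The inputs of the lines were compared to see whether the 80S fractions already differed. In the edgeR fit of the 6 inputs no member passed in any pair, beside 0% of 16728 genes for S38A against WT and 0.00598% (1 gene, higher) for each of the other pairs, in which DESeq2 called no member either. For S38A against WT, 4 members had an unadjusted p under 0.05 (12.5%, beside 15.3% of all genes). They were EIF4G3 (log2 0.56, SE 0.14, edgeR adjusted p 0.17), EIF4G1 (0.50, SE 0.13, edgeR adjusted p 0.18), EIF3M (-0.38, SE 0.14, edgeR adjusted p 0.26) and EIF3L (-0.49, SE 0.19, edgeR adjusted p 0.27). For EIF4G1 and EIF4G3, the S38A inputs lay above both WT and both S38D inputs, and the S38D inputs above both WT inputs. Separation of the S38A from the WT inputs was also found for other members, such as EIF4H (higher in S38A) and EIF1 and EIF3D (lower). Its share over all genes was not counted. DESeq2 called EIF4G1 and EIF4G3 higher in S38A (1.72% of all genes higher), and edgeR without the filter on low counts called both of them and EIF3L. How many genes in all were called without the filter is not given here. The second S38A library stands apart for several members: without the first S38A input, EIF4G3 (0.69) and EIF3L (-0.80) passed.

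Of the eIF3 subunits, 11 of 12 had lower values in the S38A inputs than in the WT inputs (10 of 12 with library totals), with a median log2 difference of -0.33, and none passed. That median was -0.10 without the second S38A input and -0.58 without the first, and 9 of 12 values were negative without the second WT input. For S38D against WT, 11 of 12 were negative as well (median -0.12), and no member of any role had an unadjusted p under 0.05 (3.32% of all genes did). The lowest p there was that of EIF4G1, at 0.25 (SE 0.13, edgeR adjusted p 1.00). For S38D against S38A, no member had an unadjusted p under 0.05 (3.77% of all genes did), and the lowest was that of EIF4G3, at -0.30 (SE 0.14, edgeR adjusted p 0.96).

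Scaling the inputs to their spike-in RNA, added in equal amounts per the labels, lowered all values for S38A against WT (median of all genes -0.44), S38D against WT (-0.83) and S38D against S38A (-0.40). On that scale EIF4G1 and EIF4G3 remained above WT in S38A (0.13 and 0.18) and were below WT in S38D (-0.55 and -0.56), and no member passed. The WT inputs themselves differed in spike-in share, at 0.116% and 0.484%, the lowest and highest of the inputs.

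**Figure D5:**
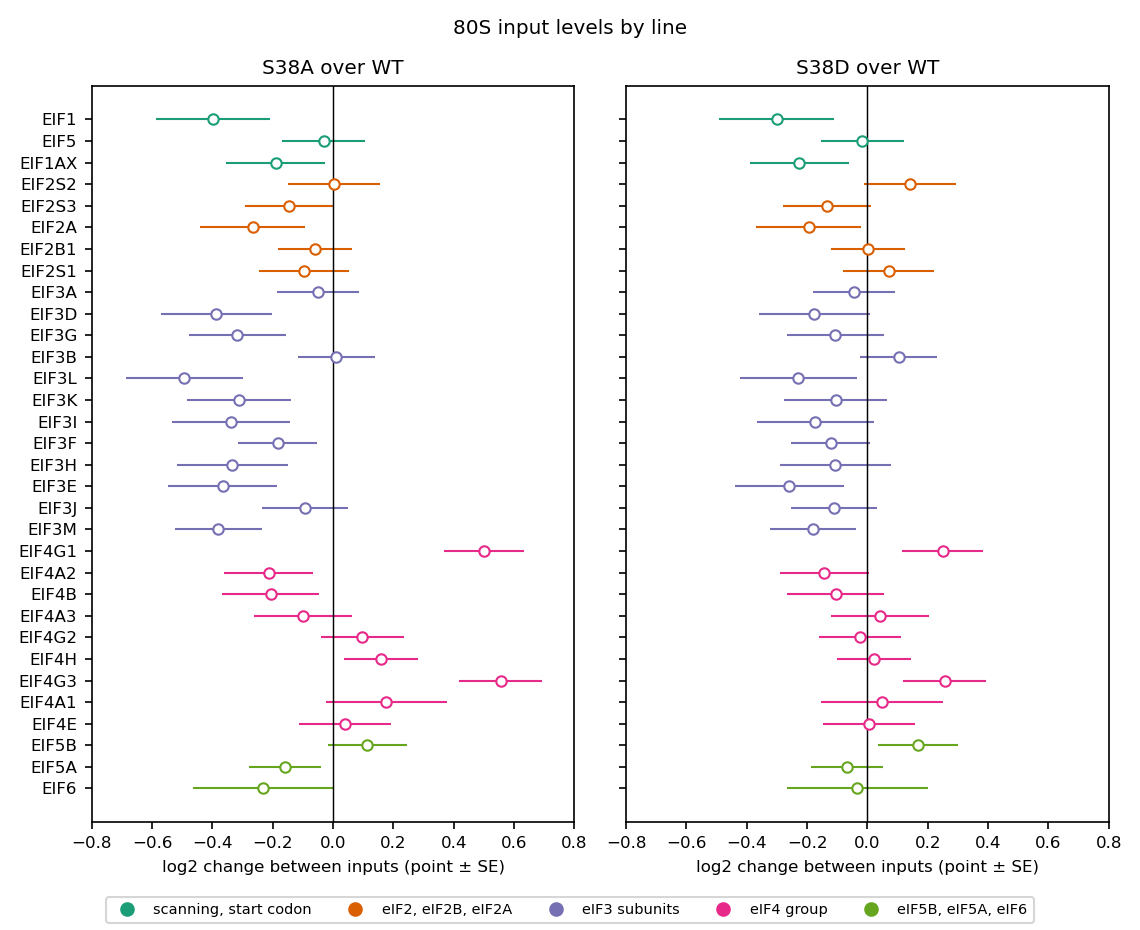
log2 change between inputs for each initiation factor mRNA (point, with 1 SE either way, coloured by role), S38A over WT at left and S38D over WT at right. EIF4G1 and EIF4G3 lie at the right in both panels and most eIF3 subunits left of 0; none passed the test, and both panels share the WT inputs.

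The 8 mRNAs with a C and pyrimidine run at their start were all higher in IP than in input by value, and 6 of them passed (EIF2S3, EIF3D, EIF3F, EIF3K, EIF4A2 and EIF4B, but not EIF2A and EIF3M), with a median log2 change of 0.52. Of the 18 other members with a listed start, 12 were higher and 1 was lower, with a median of 0.36. EIF5B, whose printed start begins with A and has no such run, had the highest change among all of them. In the inputs all 8 had lower values in S38A than in WT (-0.15 to -0.39, median -0.24) and in S38D than in WT (median -0.14), both comparisons sharing the WT libraries, and none of the 8 passed. These medians moved with single libraries: the S38A value was -0.15 without the second S38A input and -0.40 without the first, and the S38D value was -0.056, with 1 of the 8 positive, without the second WT input. The 18 others had 8 positive and 10 negative values for S38A against WT (median -0.05). The median of all genes was -0.017 for S38A against WT and -0.0053 for S38D against WT. EIF3D, EIF3F, EIF3K and EIF3M are among the 8 and among the eIF3 subunits above, so the lower input values of both sets are in part the same. The motif is a match of letters at an annotated start, and the starts used in these cells were not analysed here.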

How the data were processed

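Each library has a table of raw counts by Ensembl identifier, with 92 ERCC spike-in sequences, which the authors deposited and which was used unchanged. The submitters' processing notes name bcl2fastq 2.16.0.10, STAR 2.4.2a, DESeq2 and the hg19 build. The program, strand setting, multiple mapping and annotation behind the counts are named in neither labels nor files.

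The members are 32 identifiers paired with symbols in a fixed list, and roles were assigned from textbook knowledge. Members, lists and tests were chosen with earlier results of these data known. Of 59792 RefSeq genes, 0 carried an Ensembl identifier, so other initiation pathway genes, cell type markers and RPL12 itself were not analysed here.

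In R 4.3.3, edgeR 4.0.16 was run with filterByExpr (minimum count 10), TMM scaling, glmQLFit and glmQLFTest over all genes, with Benjamini-Hochberg adjustment per comparison, 10 in all, and a call threshold of adjusted p 0.05. IP comparisons used all 12 libraries (16920 genes, biological coefficient of variation 17.4%), with interaction contrasts between lines, and input comparisons the 6 inputs (16728 genes, 15.7%). The SE is the log2 change divided by the square root of the F statistic. Log2 ratios of single fractions used a prior count of 2. ERCC counts stayed out of library sizes.

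Values of every library are given for at most 8 members called each way over the lines, for the called members (at most 4 each way) or the member of lowest p in each other comparison, for the EIF4A and EIF4G families and for EIF1, EIF2S1, EIF4E, EIF5B and EIF6.

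By the labels' protocol, an input and an IP of equal number share 1 fraction, and the pairing used here rests on that. Over all genes, their deviations from the group means had correlations of 0.28 (WT), 0.64 (S38A) and 0.54 (S38D). With 2 libraries a group, each line gives a single sign, so these correlations cannot establish the pairing. Replicates differed by more than sampling noise (chi-square per degree of freedom 5.08 to 14.9). Alternatives were RLE size factors, library totals, no filter, DESeq2 1.42.0, the replicate block, spike-in scaling of inputs and omission of each library. The fits were tested on simulated counts. Sequences are from RefSeq (GRCh38.p14), matched by symbol.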

Additional observations from a re-analysis of the deposited data

Results flagged for a closer look

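Among 64 sets of 6 libraries (32 members, input and IP), 6 had 1 library far from the other 5 by Dixon's 95% limit, which chance alone passes in about 1 set in 20. In IP, EIF5B in the first WT fraction (901 CPM, next 385) and EIF3A in the same library (1348 CPM, next 706) stood above the others. In input, EIF3A was highest in the second WT library (268 CPM, next 236). The second S38A input held the other flags: EIF3G was lowest there (175 CPM, next 239), EIF6 was lowest (35.2 CPM, next 51.9) and EIF4A1 was highest (30.6 CPM, next 25.5).

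For EIF4G3, both S38D fractions were above 0 and both S38A fractions below 0 in log2 IP over input, with means 0.17 apart. The edgeR interaction test of this difference gave 0.18 (SE 0.29, adjusted p 1.00).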

How the results depend on the processing

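Over the lines together, omission of 1 library left 18 to 24 members called. In WT the 10 calls became 6 with library totals (5 higher, 1 lower), 22 with the replicate block and 0 to 14 under omission of 1 library. In S38A the 0 calls became 2 without the filter, 3 in DESeq2, 13 with the replicate block and 0 to 2 under omission. In S38D the 9 calls became 5 with library totals, 14 without the filter, 19 in DESeq2, 24 with the replicate block and 0 to 15 under omission. When both libraries of WT fraction 1 were dropped, WT had 0 calls, and adding the replicate block to that gave 20 in WT, 26 in S38A and 26 in S38D. That last fit also gave 1 call for S38D against WT in IP over input (EIF3A, 0.59, edgeR adjusted p 0.012) and 8 for S38D against S38A. S38A against WT in IP over input had 2 calls without the filter and 0 to 2 under omission. Between the S38A and WT inputs there were 3 calls without the filter, 2 in DESeq2 and 0 to 2 under omission. Over all libraries, the replicate block called no member between lines, in IP over input or, where lines share only the number, in input. The counts in this section are of members alone. Calls over all genes moved between fits as well, so the counts describe the fits rather than the members. With the block and without WT fraction 1 the prior was 89.3 degrees of freedom, beside 6.76 in the fit of all libraries without the block.

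Of the values of single members under an alternative, 1127 kept direction and side of the threshold, 186 lost and 43 gained a call, and 23 changed sign. In IP against input, EIF2B1 (-0.11), EIF4A1 (-0.14) and EIF4G3 (-0.081) did so with library totals. Under omission EIF4A1 ranged from -0.044 to 0.18 and EIF4G3 from -0.0040 to 0.25, with the lowest values without the first WT IP. With WT fraction 1 dropped, EIF4A1 and EIF4G3 were at -0.0016 and -0.0096, or -0.0027 and -0.0091 with the replicate block. For S38D against WT in IP over input, omission gave -1.39 to 0.16 for EIF5B, -0.93 to 0.42 for EIF3A and -0.61 to 0.41 for EIF2S2, the highest without the first WT IP, and 0.0055 for EIF2S2 without the first S38D IP. With WT fraction 1 dropped, EIF5B, EIF3A and EIF2S2 were at 0.29, 0.59 and 0.37 there, or 0.30, 0.59 and 0.36 with the replicate block. With spike-in scaling, EIF4G1 (-0.55) and EIF4G3 (-0.56) turned for S38D against WT inputs, and EIF3L (-0.074) and EIF3M (-0.17) for S38D against S38A. The cause was not tested.

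In the fit without the block, single-line changes had a median SE near 0.19 (log2) over the members. For differences between lines in IP over input it was 0.26, and no member passed there at any size. The largest such difference was that of EIF5B for S38A against WT (-1.58, SE 0.49). A single-line change of 1.20 for EIF5B in S38A (SE 0.35) did not pass either.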
